A study of Arabidopsis thaliana with 9 samples.

Results

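GRF1 is a growth-regulating factor, and 630 of 27444 protein-coding Arabidopsis thaliana genes (2.30%) carried a GRF1 peak summit in all 3 libraries, inside the gene or within 1 kb of it. Peaks of the 3 35S:GRF1-GFP lists that overlapped by at least 1 bp were merged into 2635 regions, and 588 of these held a peak from every library. The summit of a region was the median of the summits in the 3 libraries. A gene was a member when that summit lay inside its annotated span or at most 1 kb outside it. Such genes were found at 460 of the 588 regions, and the other 128 had none.

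The study asked where in the genome GRF1 and its relative GRF3 bind. Whole plants of strain Ws, 2 weeks old and grown on MS medium, carried 35S:GRF1-GFP, 35S:GRF3-GFP or 35S:GFP, with 3 replicates of each. Chromatin immunoprecipitation with an antibody against GFP, followed by sequencing (ChIP-seq), gave 1 peak list per library. The 35S:GFP samples, which carry the tag alone, were not analysed here. The 35S promoter drives its gene strongly in most plant tissues, so the tagged factor was not limited to the cells and levels in which GRF1 normally works. The labels describe replicate blocks at planting but not whether replicates were processed apart. Spreads between libraries may therefore be technical.

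GRF proteins are plant transcription factors with a DNA-binding WRC domain and a QLQ domain, through which they join GIF coactivators. They promote cell division in young leaves and other organs, and the microRNA miR396 restricts them to growing tissue by cutting the transcripts of most family members. A peak beside a gene shows where tagged protein, or DNA recovered with it, was enriched, and no expression data stand beside it here.

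Fold enrichment, the ratio of signal at a peak to the peak caller's control, is the authors' own value throughout. Which control the caller had is not given in the sources, and the sequencing depth of the libraries is unknown. The genes were chosen by these peak calls and summits, so their folds are given as descriptions without tests.

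The 3 GRF1 libraries held 1410, 1122 and 1878 peaks in replicates 1, 2 and 3, with median folds of 2.43, 4.52 and 2.60. Replicate 2 thus had the fewest peaks and the highest median. At the 460 regions the median folds were 3.33, 6.08 and 4.50, and the highest folds were 89.1, 94.2 and 136. The lowest −log10 q of a peak used was 1.62, 1.33 and 1.94 in replicates 1, 2 and 3. Spearman's correlation of fold over the 460 regions was 0.70 between replicates 1 and 2, 0.84 between 1 and 3 and 0.73 between 2 and 3. These correlations describe regions chosen for a peak in every library, and neighbouring regions share surroundings. Summits of the 3 libraries lay within 25 bp of each other in 349 regions and over 100 bp apart in 24.

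A pair of region kinds stood out among the 460 by which library gave the highest fold. In 275 regions replicate 2 was highest, in 172 replicate 3, and in 13 replicate 1. The 275 had a narrow range of fold, with medians of 3.08, 5.93 and 4.07 in replicates 1, 2 and 3, and a middle 50% of mean folds from 4.10 to 4.65. The 172 ranged widely, with medians of 10.1, 9.69 and 15.5, a middle 50% of mean folds from 6.97 to 21.7, and a highest mean fold of 106. Fold in replicate 2 divided by fold in replicate 1 had a median of 1.93 in the 275 and 0.94 in the 172. Over all 460 regions that ratio had 2 peaks: 93 regions lay above 1.8 and up to 2, 20 above 1.2 and up to 1.4, and 61 above 0.8 and up to 1. The split was made from the measured folds, so its fold values are a description only. Over all peaks of a list the median fold was 4.52 in replicate 2 and 2.43 in replicate 1. Whether this difference between whole lists gave the ratio in the 275 was not tested.

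**Figure D1:**
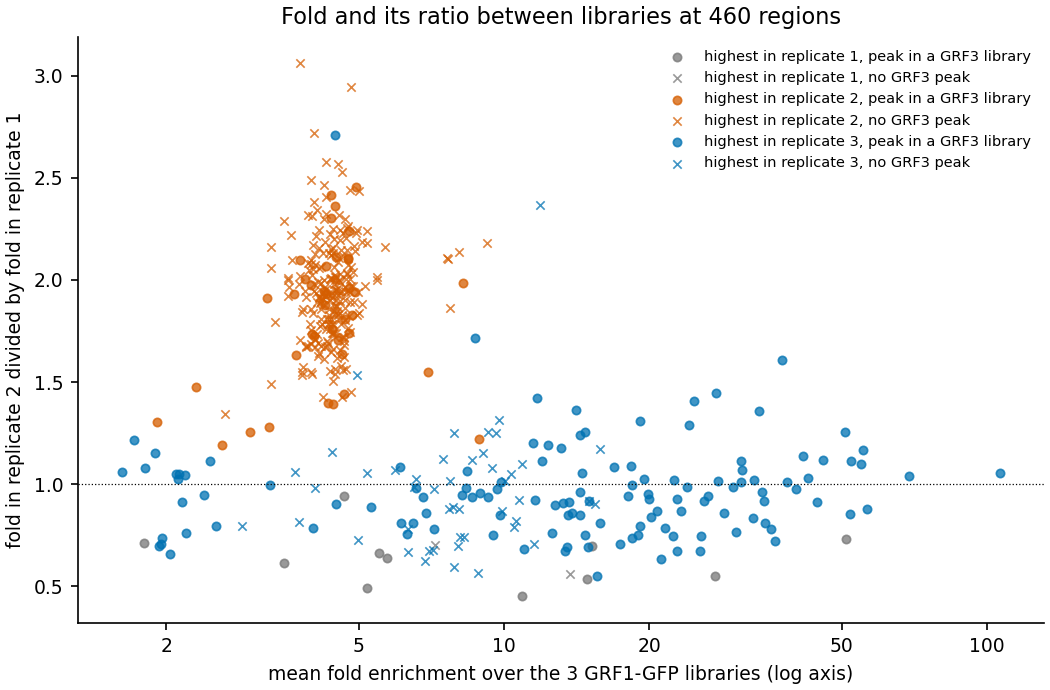
Each point is 1 of the 460 regions with a nearby gene. The x axis (log) gives the mean fold over the 3 GRF1-GFP libraries and the y axis the fold in replicate 2 divided by that in replicate 1. Colours mark the replicate with the highest fold and circles mark regions with a peak in at least 1 GRF3-GFP library. The 275 regions highest in replicate 2 form a compact cloud around a mean fold of 4.40 and a ratio of 1.93, and most are crosses.

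Among the 460 regions with a gene within 1 kb, both kinds differed in where they lay. The 128 regions without such a gene are not in these shares. Of them, 98 were highest in replicate 3, 19 in replicate 2 and 11 in replicate 1, so the shares hold only for regions near genes. Summits were inside a gene span in 78 of the 275 regions highest in replicate 2 (28.4%) and in 115 of the 172 highest in replicate 3 (66.9%). Of the 197 outside summits of the regions highest in replicate 2, 190 were within 310 bp of the nearest gene. Of the 57 outside summits of those highest in replicate 3, 29 were that close. Inside genes, the summits highest in replicate 2 also stayed near an end of the span: 70 of 81 pairs of summit and gene had the summit within 300 bp of the nearer end, at a median of 165 bp. For replicate 3 that held for 45 of 115 pairs, at a median of 375 bp. Strand is not in the gene table used, so the start and the end of a gene cannot be told apart.

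**Figure D2:**
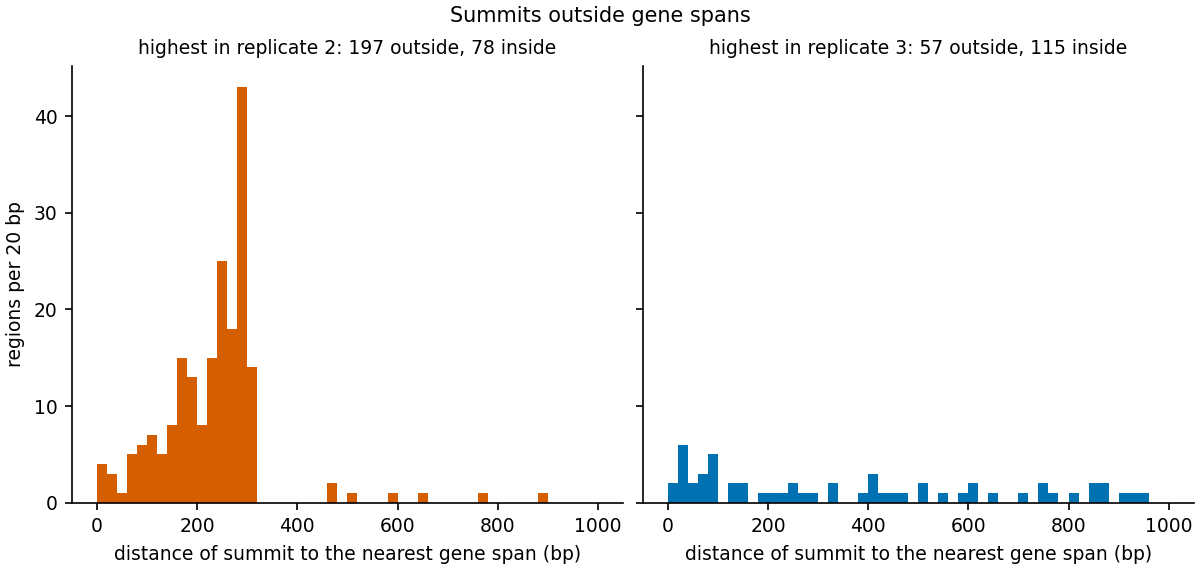
The 2 panels count regions by the distance (bp, in bins of 20 bp) from an outside summit to the nearest protein-coding gene span, for regions highest in replicate 2 (left) and in replicate 3 (right). In the left panel 190 of 197 summits lie within 310 bp, and 122 of them are between 201 and 310 bp. In the right panel 29 of 57 summits lie within 310 bp, 18 of them within 100 bp, and the other 28 lie farther out, up to 1 kb.

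Peak shape and the GRF3 libraries separated the same regions. The summit lay at a median of 44.3%, 42.9% and 43.4% of the peak's width from its left end in replicates 1, 2 and 3 for the 275 regions, and at 12.4%, 12.7% and 11.5% for the 172. All 3 libraries gave the identical left end in 2 of the 275 and in 42 of the 172. Of the 275, 236 (85.8%) had no peak in any 35S:GRF3-GFP library and 29 (10.5%) had one in all 3. Of the 172, 46 (26.7%) had none and 68 (39.5%) had one in all 3. The source of either kind was not tested. For the genes below, the library with the highest fold is therefore given with their values.

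Over all 460 regions, 101 (22.0%) had a peak in all 3 GRF3 libraries and 284 (61.7%) in none. Among all 2635 merged GRF1 regions the share with a peak in all 3 GRF3 libraries was 14.1%. Replicates 1, 2 and 3 of GRF3 had a peak at 158, 108 and 147 of the 460 (34.3%, 23.5% and 32.0%), against 22.2%, 23.4% and 38.4% of the 2635. GRF3 peaks were frequent at both ends of the fold range: all 49 regions with a mean fold of 20 or more had a GRF3 peak in at least 1 library, and 35 of the 49 had one in all 3. At the other end, 19 of 24 regions with a mean fold under 3 also had a peak in all 3 GRF3 libraries, while 32 of the 280 with a mean fold from 3 to 6 did. Peaks of the 24 were wide, with medians of 665.5, 503.5 and 761.5 bp in GRF1 replicates 1, 2 and 3. Over all 460 regions the medians were 296, 379 and 321 bp. Any overlap with a GRF3 peak counted, and whether width gave the overlaps was not tested. Whether a control used for both sets of libraries gave shared peaks was not tested.

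The 15 regions highest in fold rank were linked to 22 genes, 9 of them with a name, against 250 named genes among all 630. Their summits lay inside a gene in 11, all 15 had a peak in all 3 GRF3 libraries, and in 14 replicate 3 was the highest GRF1 library. The first was 132 bp from AT5G37240 (chromosome 5, 14739571 to 14739875, TAIR10), with folds of 89.1, 94.2 and 136. The second was 241 bp from AT1G13230 (chromosome 1, 4522724 to 4523143), with folds of 58.6, 61.0 and 87.6. In both, replicates 1 and 2 were close together and replicate 3 was above them. AT2G34317 held a summit inside its span (44.5, 51.9 and 69.5), and the summit near AT5G22799 was 204 bp away (53.9, 47.6 and 67.8).

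Named genes followed. UGT73C2, a UDP-glycosyltransferase gene, and its neighbour AT2G36770 shared a region (chromosome 2, 15414565 to 15414848) with folds of 45.1, 49.7 and 69.4. The MADS-box gene AGL14, also called XAANTAL2 and known from root and flowering development, had a summit inside its span (chromosome 4, 7146447 to 7146731) with folds of 41.4, 52.0 and 58.9. ALPHA DOX2 encodes an alpha-dioxygenase that oxidises fatty acids, and the summit 864 bp from it (chromosome 1, 27708497 to 27708775) had folds of 48.3, 41.2 and 66.8. SECA2, of a chloroplast protein translocation pathway, held one inside its span (chromosome 1, 7599735 to 7600022), with folds of 42.6, 47.4 and 66.7. At AT4G32700 replicate 1 was the highest, with folds of 61.2, 44.7 and 47.4, and it was the exception to the order seen in the other 14.

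In or near the remaining 6 of the 15 were genes of fatty acid elongation, meristem signalling and abscisic acid sensing. KCS12 encodes a ketoacyl-CoA synthase, a class of enzymes that elongates very long chain fatty acids, and its folds were 37.2, 38.3 and 52.5 (chromosome 2, 12277160 to 12277452). CORYNE (CRN), a membrane pseudokinase that passes on the CLAVATA3 peptide signal limiting the shoot meristem, held a summit inside its span (chromosome 5, 4254767 to 4255052). The folds there were 34.3, 39.0 and 51.5. The same summit was 753 bp from SCARFACE (SFC), an ARF-GAP gene needed for continuous leaf veins, and also near AT5G13295, and it cannot be assigned to 1 of the 3. FTSH11, a chloroplast protease gene, held a summit that was 486 bp from RCAR3, the abscisic acid receptor gene also called PYL8 (chromosome 5, 21563173 to 21563452; 32.9, 33.4 and 49.3). The last 3 were at AT5G47540 and AT5G47530, AT2G30540 and AT2G30530, and AT1G09910 and AT1G09920, with mean folds of 45.8, 44.4 and 40.3.

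**Figure D3:**
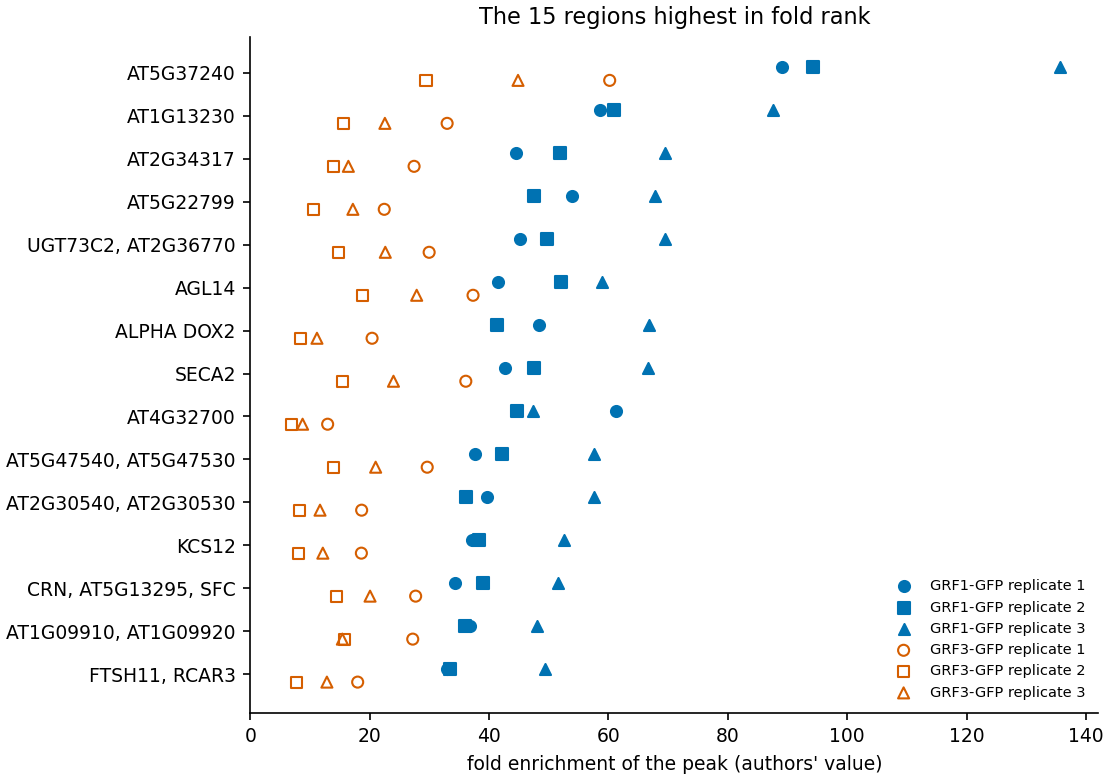
Rows are the 15 regions highest in fold rank, labelled with their linked genes, and the x axis is the authors' fold enrichment. Filled symbols are the 3 GRF1-GFP libraries and open symbols the 3 GRF3-GFP libraries. Replicate 3 gives the highest GRF1 value in every row other than AT4G32700, and every row has 3 open symbols.

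Function lists were matched to the 27444 genes by symbol, synonym or product name. Of the 630 genes, 190 were in at least 1 of the 34 lists and 440 in none, and 373 of the 440 had no name. The share of named genes that were members was 2.41%, against 2.30% of all genes. Shares per list are set beside 2.30% as descriptions, because list patterns were corrected after matches had been read. Listed genes as a whole were members more often, 190 of 6808 (2.79%), so a list share slightly above 2.30% is no different from that of listed genes. Most lists held under 12 members, so 1 gene more or fewer moves a share by much, and no list was tested.

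**Figure D4:**
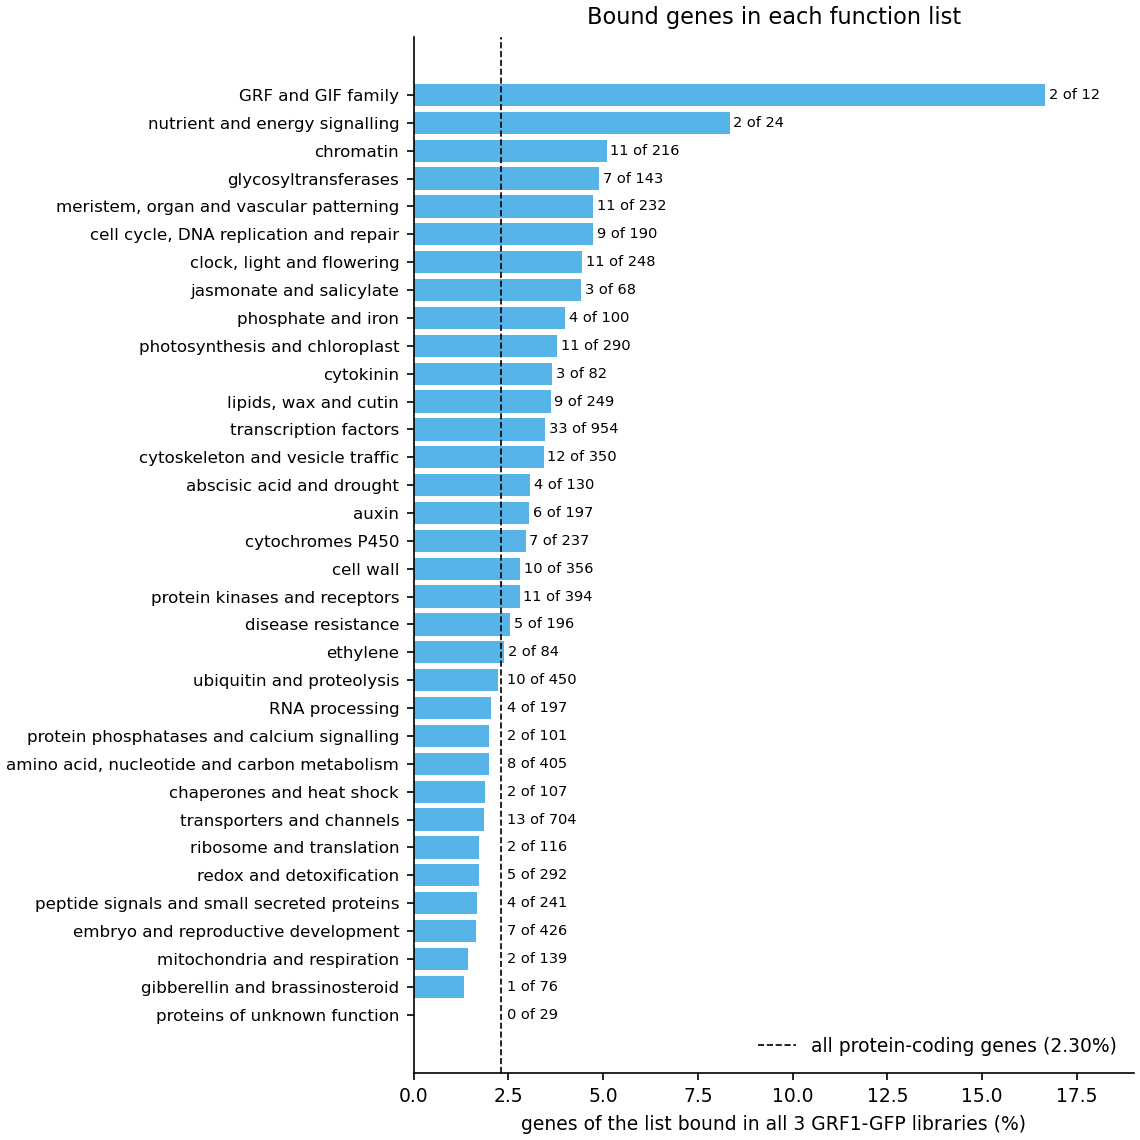
Bars give, for each of 34 function lists, the percentage of its genes with a GRF1 region in all 3 libraries, with the counts beside them. The dashed line is the 2.30% of all protein-coding genes. Chromatin (11 of 216), glycosyltransferase (7 of 143) and patterning genes (11 of 232) lie to its right, and transporters (13 of 704) to its left. List patterns were corrected after matches had been read, so the bars are descriptions and no bar tests a difference from the line. The patterning, phosphate and iron, and nutrient and energy signalling lists were added at that stage. Their bars cannot be read against the line.

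Within the GRF and GIF family, 2 of 12 genes were members, GRF1 itself and GRF7. GRF1 had 3 regions inside its own span, with low folds that changed little between libraries: 2.64, 3.32 and 3.01 in the highest and 2.38, 2.83 and 2.63 in the most even. Transgene DNA and the plant's own GRF1 gene cannot be told apart in these peaks. The region with the most even folds lay 551 bp from bZIP6, the neighbouring transcription factor gene. GRF7, a repressor of stress-response genes, had folds of 3.50, 6.31 and 4.27, the pattern of regions highest in replicate 2. Among the rest, GRF4 had a peak in replicate 3 alone (3.64) and GRF8 in replicate 2 alone (3.55). None of the 3 lists held a peak by this rule at GRF2, GRF3, GRF5, GRF6, GRF9, the GIF genes AN3, GIF2 and GIF3, or the 2 MIR396 genes.

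Transcription factor genes were members in 33 of 954 cases (3.46%, against 2.30% of all genes). Their 34 regions were highest in replicate 3 in 18 cases, in replicate 2 in 14 and in replicate 1 in 2. Over all 460 regions these counts were 172, 275 and 13. After AGL14, the next ranks belonged to 2 NAC genes. NAC067 was 338 bp from a summit with folds of 36.3, 26.3 and 46.5. NAC085 was 283 bp from one inside AT5G14480, with 23.0, 15.5 and 30.1. Both showed replicate 2 as the lowest library. ARF14, an auxin response factor gene, held a summit inside its span (22.5, 14.3 and 26.5), as did ARF23 (14.0, 9.65 and 16.8). These 2 genes and ARF22 (7.64, 5.14 and 8.20) belong to a group of closely similar copies on chromosome 1, so reads may have been split between them and their folds are uncertain.

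ARF19, an activator of auxin responses in roots and outside that group of copies, had folds of 5.09, 4.52 and 6.34 inside its span and a peak in all 3 GRF3 libraries. Other high ranks in this list belonged to 2 bZIP genes and a WRKY gene. bZIP16, whose protein binds G-box elements of light-regulated genes, was 446 bp from a summit inside DAD2, with folds of 18.96, 14.2 and 23.6. BZIP28, which relays endoplasmic reticulum stress to the nucleus, was 797 bp from one inside AT3G10810, with 15.96, 17.4 and 21.7. WRKY21 held one inside its span, with 10.5, 14.4 and 17.4. All 3 were highest in replicate 3. In named members chosen after their values were seen, MYB94, an activator of leaf wax synthesis, lay 33 bp from a summit with folds of 14.2, 9.58 and 16.3, and ATAF1, a stress-responsive NAC gene, 774 bp from one with 8.15, 6.05 and 10.6. The ATAF1 summit lay inside AT1G01725.

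MYB genes of the cell cycle, also named after their values were seen, fell on either side of the split. PC-MYB1 (MYB3R1), which controls genes of mitosis, held a summit with folds of 6.41, 4.84 and 7.66. MYB3R2, its relative, was 668 bp from one with 3.58, 6.77 and 4.30, and AT4G00530 was nearer to it, at 277 bp.

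Flowering, light and clock genes counted 11 of 248 (4.44%). FRUITFULL, listed as AGL8, acts in flowering and fruit growth, and it was 667 bp from a summit with folds of 9.71, 8.46 and 11.5 that lay inside the receptor kinase gene RLK1. AGL31 (MAF2), a floral repressor gene of the FLC group, held a summit with folds of 6.92, 7.98 and 12.2. Together with AGL14 these were the 3 regions of the list highest in replicate 3. The other 8 were highest in replicate 2, with mean folds of 3.62 to 4.77: SEP4, a floral organ identity gene (38 bp; 3.49, 5.64 and 3.58), ELF8, part of the PAF1 complex that keeps FLC active (271 bp; 3.08, 5.27 and 3.82), AGL89, STH, the blue-light receptor gene PHOT2, FRS1, FRS4 and the clock gene LWD2.

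Genes that shape meristems, organs and veins counted 11 of 232 (4.74%), at 10 regions. Of these regions 6 were highest in replicate 3, against 172 of all 460. The list was added after matches had been read, so its share of 4.74% cannot be read against that of all genes. Beside CRN and SFC, HOOKLESS1 (HLS1), required for the apical hook of seedlings, held a summit with folds of 23.1, 21.8 and 34.3. SQUINT (SQN), a cyclophilin gene that promotes microRNA activity and delays adult leaf traits, held one with 21.3, 18.4 and 30.1. ATH1, a homeobox gene of shoot boundaries and flowering time, was 279 bp from one with 10.1, 7.94 and 13.5. RTFL11, of the ROTUNDIFOLIA-like small peptides that limit organ length when overproduced, was 570 bp from one inside AT1G17230, with 6.26, 5.08 and 8.15. In these 4, replicate 3 was highest and replicate 2 lowest.

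CLV2, whose receptor-like protein pairs with CORYNE, was also a member, with lower folds of 2.83, 6.08 and 4.26 at a summit 215 bp away. JAGGED LATERAL ORGANS (JLO), a LOB-domain gene of organ boundaries, had 3.45, 5.71 and 4.56 at 162 bp. CVP2, a phosphoinositide phosphatase gene of vein patterning, had the 5th most even folds of all 460 regions, 3.91, 4.53 and 4.81, inside its span. ERH3, the katanin gene that severs microtubules, had 2.24, 4.83 and 2.82 at 258 bp. ATS (KANADI4), an ovule integument gene, had its highest fold in replicate 1 (5.26, 3.25 and 1.99, at 540 bp). Patterning members thus ran from mean folds of 3.29 to 41.6, over both kinds of region.

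Cell cycle, DNA replication and repair genes counted 9 of 190 (4.74%), at 10 regions with mean folds of only 4.34 to 4.87. All 10 were highest in replicate 2, against 275 of the 460 regions. B-type cyclins, whose kinases drive mitosis, were among them: CYCB1;4 (83 bp; 3.58, 5.56 and 3.95), CYCB2;4 (160 bp; 2.94, 5.91 and 4.30) and CYCB2;2 with 2 regions. Genes named for regulators of cyclin breakdown formed the next group. CCS52A2, an activator of the anaphase-promoting complex that triggers endoreduplication, had 3.04, 6.38 and 4.87 at 227 bp. CDC20.5, a gene named for the CDC20 activators of the same complex, had 3.62, 6.31 and 4.38 at 159 bp. APC2, a core subunit of the complex, had 3.47, 6.74 and 3.42 at 188 bp from a summit inside AT2G04650.

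CCS52A2 and CDC20.5 were the 2 of this list with a peak in all GRF3 libraries, and the region of CDC20.5 was shared with AGL89. The F-box gene SKP2A (137 bp; 3.29, 6.16 and 4.01), the cohesin gene SYN3 (3.19, 6.28 and 5.15, inside) and the chromosome-structure gene listed as SMC3 (573 bp; 3.33, 5.93 and 3.76) completed it. Of the 10 regions, 7 were linked to a further gene, among them that of CYCB2;4, also near FRS4, and 1 of CYCB2;2, also near PSAT, a serine synthesis gene.

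Chromatin genes counted 11 of 216 (5.09%), and 9 of the 11 had summits outside their span only, against 437 of all 630 members (69.4%). HTA8, which encodes a histone H2A.Z, stood apart from the rest with folds of 21.2, 34.03 and 57.5 at a summit 412 bp away. NRPD2B, a gene named for a subunit of the plant silencing polymerases, had 6.49, 8.15 and 13.2 inside its span. SNL4, a SIN3-like co-repressor gene, had 7.19, 4.90 and 9.25 at 286 bp, and the remodeler gene CHR17 had 4.96, 5.09 and 9.71 at 35 bp from a summit inside AT5G18610. The other 7 were highest in replicate 2. They included CMT3, a DNA methyltransferase of CHG sites (170 bp; 3.29, 6.45 and 4.32), DEMETER (DME), a DNA demethylase (199 bp; 3.18, 4.90 and 3.95) and SPLAYED (SYD), a SWI/SNF remodeler (295 bp; 2.46, 6.05 and 4.21). EDM2, PKDM7D, a histone demethylase gene, DMS11 (MORC6) and ELF8 were the remaining 4.

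**Figure D5:**
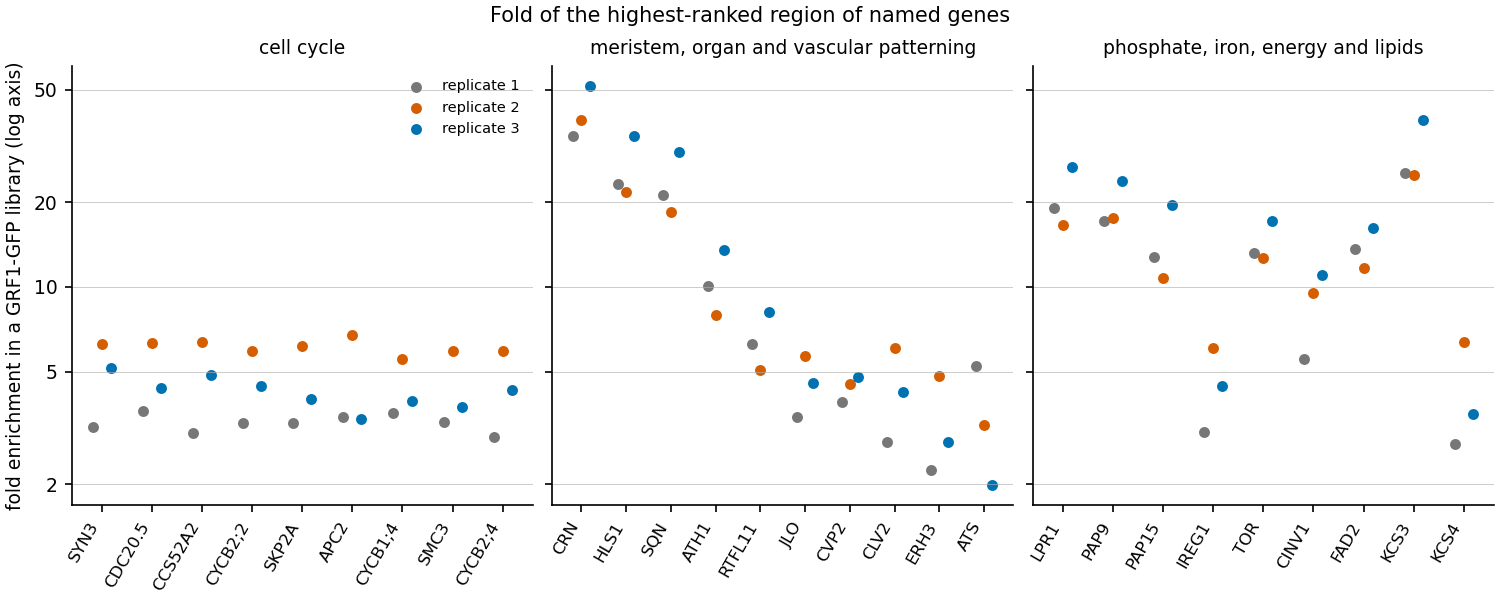
Fold enrichment (log axis) in replicates 1, 2 and 3 of GRF1-GFP at the highest-ranked region of genes from the cell cycle list, the patterning list, and 3 lists of nutrient, energy and lipid genes. The cell cycle genes share 1 level, with replicate 2 on top in all 9. In the other panels genes such as CRN, LPR1, PAP9 and TOR lie higher, with replicate 3 on top. JLO, CLV2, ERH3, IREG1 and KCS4 lie near or below the cell cycle level, with replicate 2 on top. Of the lipid list only FAD2, KCS3 and KCS4 are shown. Of the 9 regions of that list, 5 were highest in replicate 2 and 4 in replicate 3.

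Hormone genes were spread over 6 lists, with 1 to 6 members each. Auxin genes counted 6 of 197 (3.05%), the 4 ARF genes above, SAUR13 (AT4G38825) with 2 regions, and RUS2. Cytokinin genes counted 3 of 82 (3.66%), and 5 without replicate 2. IPT7, an enzyme gene of cytokinin synthesis, was 841 bp from a summit with folds of 17.8, 14.2 and 25.3. The response regulator gene RR2 (300 bp; 2.62, 6.31 and 3.95) and HK1, a histidine kinase best known as an osmosensor (441 bp; 3.58, 6.01 and 4.44), were highest in replicate 2. Abscisic acid and drought genes counted 4 of 130 (3.08%). Besides RCAR3 these were the late embryogenesis gene ATECP31 (8.02, 7.53 and 12.3, inside), NCED5, a synthesis gene (271 bp; 3.33, 7.12 and 4.32), and LEA26 (AT2G44060) with 2 regions.

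Ethylene genes counted 2 of 84 (2.38%), ACS2, which makes the precursor of ethylene (5.80, 6.51 and 10.1, inside), and EOL1 (299 bp; 3.62, 6.23 and 4.01), whose relative ETO1 marks ACS proteins for breakdown. Jasmonate and salicylate genes counted 3 of 68 (4.41%), and 5 without replicate 3. The 3 were ALPHA DOX2, AOC4 of jasmonate synthesis (226 bp; 2.67, 3.97 and 3.25) and NOXY38, found in a screen for oxylipin insensitivity (33.7, 26.4 and 47.3, inside). NOXY38 is also called FRIENDLY and keeps mitochondria from clustering. Gibberellin and brassinosteroid genes counted 1 of 76 (1.32%), BAT1, an acyltransferase of brassinosteroid turnover (182 bp; 3.49, 6.38 and 4.69).

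Nutrient and energy genes were few and lay mostly at regions highest in replicate 3, which were 172 of all 460 regions. Phosphate and iron genes counted 4 of 100 (4%), in a list added after matches had been read. LPR1, a ferroxidase that stops root growth under low phosphate, held a summit with folds of 19.1, 16.6 and 26.6. The purple acid phosphatase gene PAP9 held one with 17.1, 17.5 and 23.8, and PAP15, which releases phosphate from phytate, was 749 bp from one with 12.7, 10.8 and 19.5. The fourth was the iron exporter gene IREG1 (149 bp; 3.06, 6.08 and 4.44), highest in replicate 2. TOR, the kinase that ties growth to nutrient supply, held a summit inside its span with folds of 13.2, 12.7 and 17.2. CINV1, a cytosolic invertase gene that splits sucrose, held 2, with folds of 5.55, 9.52 and 11.1 and of 1.88, 5.10 and 6.44. The lower of these had a coefficient of variation of 52.4%, the second largest of the 460 regions. TOR and CINV1 were 2 of 24 nutrient and energy signalling genes (8.33%), a list written after the first matches had been read.

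Lipid, wax and cutin genes counted 9 of 249 (3.61%). KCS3, a relative of KCS12, was 147 bp from a summit with folds of 25.3, 24.9 and 39.2, and KCS4, a further relative, 394 bp from one with 2.78, 6.38 and 3.55. FAD2, the desaturase that makes linoleic acid outside plastids, held one with 13.6, 11.7 and 16.2. GLIP5, a GDSL lipase gene, was 466 bp from one with 13.8, 12.7 and 18.5. The cutin gene GPAT8 (807 bp), the peroxisomal oxidase genes ACX3 and ACX6 and the lipid transfer gene LTP3 (276 bp) had mean folds of 4.14 to 5.08. ACX3 and ACX6 shared 1 region, which cannot be assigned to either, and ACX6 had a second.

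Cell wall genes counted 10 of 356 (2.81%) and glycosyltransferases 7 of 143 (4.90%), with 4 genes in both. Galacturonosyltransferases of the GAUT family, which build pectin, were represented by 3 genes. GAUT7 held a summit with folds of 21.1, 20.8 and 29.9, GAUT10 had 2 regions (3.29, 6.38 and 4.44 at 287 bp, and 2.69, 5.31 and 3.96 inside), and GAUT11 lay 207 bp from 1 (3.29, 5.71 and 4.19). CSLA07, a mannan synthase gene, had 2 regions inside its span. IRX6, of secondary walls, had 2 outside it, and the one 119 bp away varied most among the cell wall members (2.495, 7.34 and 4.63; coefficient of variation 50.4%). EXT12, an extensin gene, was at the low end of all members, with folds of 2.08, 1.48 and 1.84. TBL4 (942 bp), PERK4, PMR5 and the polygalacturonase gene AT3G07830 made up the list, and UGT73C2, UGT84A2 and PGSIP2 were glycosyltransferases outside it.

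Transporter genes counted 13 of 704 (1.85%, against 2.30%). ABCC5, a vacuolar transporter of phytate that also affects guard cells, held a summit with folds of 25.8, 28.7 and 38.6. AAC3, a mitochondrial ADP/ATP carrier gene, held one with 19.5, 19.9 and 28.05. The amino acid exporter relative UMAMIT23 held one with 20.05, 15.7 and 28.7, and GLR3.3, a glutamate-gated channel of wound signals, held one with 18.2, 17.3 and 24.3. These 4 were highest in replicate 3, as were ANT1 (63 bp; 12.7, 16.7 and 27.9), AMT1;5, an ammonium transporter gene (90 bp; 8.53, 8.34 and 12.2), and the calcium pump gene ACA2 (6.37, 4.97 and 7.67, inside). The summit near ANT1 lay inside the ubiquitin protease gene UBP13. AAP2, an amino acid permease gene, was highest in replicate 2 (557 bp; 3.33, 6.45 and 5.00), and so were the other 5 genes.

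Receptor and kinase genes counted 11 of 394 (2.79%), and 10 of their 12 regions were highest in replicate 2, against 275 of all 460 regions. RLK1 held the summit given above for AGL8, with folds of 9.71, 8.46 and 11.5, highest in replicate 3. The receptor-like protein genes RLP32 and RLP33 lay 30 and 71 bp from a shared summit with folds of 11.0, 13.0 and 23.5. They are similar neighbouring copies, so the folds may hold split reads. PSKR2, a receptor gene for the growth peptide phytosulfokine, had 2 regions (3.12, 6.08 and 4.26 at 19 bp, and 3.07, 5.81 and 3.64 inside). CRK26, PERK4, CRLK2, HK1, CLV2, RLP26 and ERULUS (AT5G61350), a kinase of root hair growth, had mean folds of 4.27 to 5.45. Disease resistance genes counted 5 of 196 (2.55%): RLP26, RLP32 and RLP33 again, CDR1, an aspartic protease gene (883 bp; 12.4, 11.3 and 17.2), and the defensin-like gene LCR7 (447 bp; 9.32, 11.0 and 18.99). Calcium and phosphatase signalling genes counted 2 of 101 (1.98%), CML11 and CRLK2, and 4 without replicate 3.

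Photosynthesis and chloroplast genes counted 11 of 290 (3.79%), and apart from SECA2 and FTSH11 their 10 regions were highest in replicate 2. Over all 460 regions 275 were. Among these were TAPX, a thylakoid peroxidase gene (111 bp; 3.04, 6.10 and 3.95), the chloroplast RNA-binding gene CRB (205 bp; 3.26, 6.35 and 4.68), and CLPP5, a plastid protease subunit gene with 2 regions. The CRB summit lay inside AT1G09330. APO1, SVR1, SVR7, ftsh7, PKp3 and FRS4 were the others. Cytochrome P450 genes counted 7 of 237 (2.95%), all 6 regions highest in replicate 2, again beside 275 of all 460. CYP98A8 and CYP98A9, which make phenolic compounds of the pollen coat, shared a region with folds of 5.28, 11.3 and 7.71, above most regions of that kind, and CYP98A8 had a second. CYP79F1, of aliphatic glucosinolate synthesis (170 bp; 3.12, 5.42 and 3.76), LUT1, of lutein synthesis (3.43, 5.84 and 3.61, inside), CYP96A13, and the neighbours CYP71B30P and CYP71B31 were the rest.

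Cytoskeleton and vesicle traffic genes counted 12 of 350 (3.43%). VPS60.2, of endosomal sorting, held a summit with folds of 19.01, 13.4 and 19.7, and the syntaxin genes SYP21 (6.54, 6.64 and 10.04) and ATSYP24 (10.2, 5.79 and 10.5) held one each. The other 10 regions were highest in replicate 2, against 275 of all 460 regions. They included those at SYP51, the myosin gene XIB, VPS35A of the retromer, the actin genes ADF6, with 2, and FIM5, the microtubule genes MAP18 and MAP70-2, and EXO70C1.

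Proteolysis genes counted 10 of 450 (2.22%). UPL2, a HECT-type ubiquitin ligase gene, held a summit with folds of 18.2, 12.7 and 14.8, a region highest in replicate 1, as was UBP3 (975 bp; 8.11, 5.70 and 7.74). The UBP3 summit lay inside AT4G39900. UBP13, FTSH11, ftsh7, CLPP5, PUB19, CYS1, FBW2 and MAP1C were the others. Metabolic genes counted 8 of 405 (1.98%). CAD2, a cinnamyl alcohol dehydrogenase homologue gene, shared its region (222 bp; 9.16, 6.90 and 12.4) with the egg cell genes EC1.2 (13 bp) and EC1.3 (967 bp), whose peptides activate sperm. ADC2 (615 bp; 7.62, 6.79 and 9.15) and SPDS3 (302 bp; 2.70, 5.56 and 4.13) belong to polyamine synthesis. CINV1, PSAT, PKp3, PGSIP2 and the transketolase gene AT2G45290 were also members.

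The remaining lists had shares under 2.30%. Embryo and reproduction genes counted 7 of 426 (1.64%), with MEE29 (518 bp; 7.96, 8.04 and 13.6) and GFA2 (7.28, 6.90 and 10.4, inside) highest, and with MEE25, MEE26, MEE38, MEE45 and EDA3 lower. The MEE29 summit lay inside AT2G35330. MEE38 had folds of 1.49, 1.82 and 1.84, near the lowest of all members. RNA processing genes counted 4 of 197 (2.03%), CRB, the coilin gene AT1G13030, PAB4 and DCP5. Redox genes counted 5 of 292 (1.71%), led by ATHM2, a chloroplast thioredoxin gene (518 bp; 19.8, 28.7 and 33.7), and holding PRR2, matched here as a pinoresinol reductase gene, TAPX, GSTT2 and APX3. Peptide and small secreted protein genes counted 4 of 241 (1.66%), LCR7, EC1.2, EC1.3 and RTFL11.

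Chaperone genes counted 2 of 107 (1.87%), SQN and HSF1, a master heat shock factor gene (7.80, 9.51 and 9.37, inside). Translation genes counted 2 of 116 (1.72%), EIF2 GAMMA and eEF-1Bb1. Mitochondrial genes counted 2 of 139 (1.44%), NOXY38 and BCS1. No gene of the 29 listed as of unknown function was a member.

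Of the 440 genes in no list, 67 had a name. Chosen after their values were seen, examples with a summit inside the span were GTG1, a membrane protein gene proposed as an abscisic acid receptor (mean fold 31.2), DAD2, of N-glycosylation (18.9), and MUR4, an epimerase gene of arabinose synthesis (7.88). The DAD2 summit is the one given above for bZIP16. Examples with the level of regions highest in replicate 2 were SFR6, a Mediator subunit gene of cold tolerance (258 bp; mean fold 4.95), UPF3, of nonsense-mediated RNA decay (274 bp; 4.57), and PBS1, a kinase gene of immunity (231 bp; 4.03). The UPF3 summit lay inside AT1G33970.

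Among the 630 genes, 43 had 2 or more regions. AT2G08986 had 4, GRF1 had 3 and 41 had 2. They include CINV1, GAUT10, CSLA07, IRX6, PSKR2, CYCB2;2, ADF6 and ACX6 described above, NOP56, a nucleolar gene, and ATB' BETA, a phosphatase regulatory subunit gene. Conversely, 188 regions had 2 linked genes and 14 had 3, so 202 of the 460 cannot be assigned to a single gene. A gene named with a distance was not always the nearest. Examples of nearer genes were AT5G09210 (306 bp) for AAP2, AT4G00390 (301 bp) for GPAT8 and AT5G33330 (640 bp) for CDR1. Genes with a summit inside their span, 193 of 630, had a median span of 2818 bp, and the 437 with outside summits only had 2095 bp. The median over all 27444 genes was 2078 bp.

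Agreement between libraries was closest at AT3G31402, with folds of 26.8, 27.3 and 29.1 and a coefficient of variation of 4.34%. AT2G46190 (34.4, 31.5 and 37.5), GRF1, AT1G61900 (6.19, 6.11 and 7.25) and CVP2 followed. It was loosest at ATGRIP, of the trans-Golgi network (5.00, 11.8 and 18.7; 57.9%). CINV1, the neighbours 5PTASE13 and URH2 (2.93, 5.27 and 1.89), IRX6, and ECA2 with AT4G00905 and AT4G00910 (2.61, 6.71 and 3.54) came next.

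Chromosomes 1 to 5 held 132, 100, 61, 76 and 91 of the 460 regions. By genes, 2.59%, 2.92%, 1.54%, 2.39% and 2.13% of those on chromosomes 1 to 5 were members. The distance limit set the number of genes: 537 had a summit inside the span or within 0.5 kb, 630 within 1 kb and 1036 within 3 kb. Just inside 1 kb were AT2G17600 at 996 bp, AT4G35660 at 990 bp and HYD1, a sterol isomerase gene, at 981 bp. Just outside were PPX2 and AT1G26090, both at 1001 bp, and EMB1030 at 1002 bp.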

How the data were processed

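A deposited list per library was used, for 35S:GRF1-GFP and for 35S:GRF3-GFP (3 libraries each). The submitters' processing notes name FastQC, Trimmomatic, Bowtie2 and MACS2, and TAIR10 as the build. They give no version or setting. For every peak, the authors' lists hold a score, a fold enrichment (a ratio), and p-value and q-value columns on the −log10 scale. Read counts are absent from the lists, so depth stays unknown and intervals that rest on it were left out.

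Merging, summits and members follow the rule in the opening. Where a library had several peaks in a region, the widest gave summit and fold. Fold was used to describe and rank peaks inside a list. It was also compared between libraries, to sort regions by the highest library and to give means, ratios and coefficients of variation. With depth unknown, these comparisons are descriptions. Names and spans of genes were read from RefSeq (TAIR10.1), which served for naming and neighbourhood and holds no strand, exon or UTR here. Printed coordinates are those of the lists, counted from 1.

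The members and the function lists were chosen with earlier results of these data known. List patterns were corrected, and 3 lists (patterning, phosphate and iron, nutrient and energy signalling) added, after matches had been read. Named genes were those of the 15 highest mean fold ranks, all members of lists of up to 12 and the 8 highest of longer ones, the GRF, GIF and miR396 genes, genes with 2 or more regions, the 10 highest with a peak in all GRF3 libraries, the 3 genes at each side of 1 kb, and the 5 largest and 5 smallest coefficients of variation. Others are said to be chosen afterwards. Alternatives were thresholds on −log10 q (5) and on fold (4), lists of equal length (1122 peaks), stricter overlap, other distances, mean summits, symbols only, and leaving out each library. The steps were tested on simulated lists. Python 3.11.15 and pandas 2.3.3 were used. Promoter motifs were planned and not analysed here. A member gene of the cytoskeleton and vesicle traffic list is not reported here.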

Additional observations from a re-analysis of the deposited data

How the results depend on the processing

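With a −log10 q of at least 5, lists of equal length, a reciprocal overlap of 50%, summits within 100 bp, summits within 0.5 kb and mean summits, there were 434 to 461 regions and 537 to 633 genes, against 460 and 630. With a fold of at least 4 in each library, 160 regions and 217 genes were left, and the share of regions with the summit inside a gene was 65.6%, against 43.9%. That filter acts by construction on the regions highest in replicate 2, whose median fold in replicate 1 was 3.08. Counting only summits inside a span left 202 regions and 193 genes, and a distance of 3 kb gave 1036 genes. The share of member genes in at least 1 function list was 34.2% for summits inside a span only and 22.7% with symbols only, against 30.2%. With GRF3 peaks of a fold of at least 4 only, 15.7% of regions had a peak in all GRF3 libraries, against 22.0%. Leaving out each GRF1 library in turn gave 495 to 534 regions, 681 to 731 genes, 44.2% to 46.4% with the summit inside a gene, 20.4% to 21.6% with a peak in all GRF3 libraries and 29.7% to 30.7% of genes in a list. A rule needing 2 libraries raises the counts by construction. Of the 34 lists, the count moved by over 1.5 times in 28 with summits inside a span only and in 15 with symbols only. Both settings lower counts by construction, the first by leaving 193 of 630 genes and the second by shortening the lists. The count also moved in 1 list without replicate 2 (cytokinin, 5 against 3). Without replicate 3 it moved in 2 (jasmonate and salicylate, 5 against 3, and phosphatases and calcium signalling, 4 against 2). No paired analysis was possible because the result comes from no test. Promoter motifs, also planned, were not run. Unknown depth and an unknown control limit every fold.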
